A study of Caenorhabditis elegans with 12 samples.

Results

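The proteasome subunit genes of *Caenorhabditis elegans* were taken as all genes whose WormBase symbol begins with pas, pbs, rpt or rpn followed by a number, after the sequence names of the deposited table had been matched to symbols of the WBcel235 annotation. The annotation holds 33 such genes, and all 33 were among the 12894 genes listed. They comprise 7 genes of the alpha ring, 7 of the beta ring, 6 ATPases of the base, 4 other genes of the base and 9 of the lid. No expression value entered this symbol rule, but the set was chosen with earlier results of these data known.

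The proteasome is the protease that destroys proteins marked with chains of ubiquitin. Its core particle is a barrel in which outer rings of alpha subunits (pas genes) gate the entry and inner rings of beta subunits (pbs genes) carry the peptide-cutting sites. The regulatory particle caps the barrel: its base holds the ATPases that unfold substrates (rpt genes) together with scaffold and ubiquitin-binding subunits, and its lid removes ubiquitin before the substrate enters. In *C. elegans* the genes of the complex are known to be induced together by the transcription factor SKN-1 when the proteasome is impaired, and a high level of the lid gene *rpn-6.1* has been tied to stress resistance and long life.

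Messenger RNA was measured by sequencing in whole early adult animals of the wild-type strain N2 (Bristol). Hatchlings were kept without food in L1 arrest, a halt in development after hatching, and then fed HT115 bacteria that carried either an empty vector (EV) or a construct for RNA interference (RNAi) against *daf-2*, the insulin/IGF receptor gene. Animals were collected when eggs appeared on the plates. The comparisons ask what a long early arrest leaves in the adult and how *daf-2* RNAi during recovery bears on it.

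The 4 groups were control EV (1 day of arrest, then EV bacteria), control *daf-2* RNAi (1 day, then *daf-2* RNAi bacteria), starved EV (8 days, then EV bacteria) and starved *daf-2* RNAi (8 days, then *daf-2* RNAi bacteria). Each group had 3 libraries, lettered A, B and C, which the series' design text calls biological replicates. Recovery took about 52 hours after 1 day of arrest and about 68 hours after 8 days, so the effects of arrest and of recovery time cannot be told apart here. All groups shared the strain, the bacterial host and the recovery temperature. RNA came from the whole body, so fewer cells of a type and less RNA per cell cannot be told apart.

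Libraries held 21150912 to 30037731 reads over the listed genes. Levels are given in CPM, the deposited read count of a gene relative to a scaled library size, and changes as log2 differences of CPM + 1 with their standard error (SE). A gene was called when limma's adjusted p, over 12830 tested genes, was below 0.05. The targeted gene was not lower under its label. *daf-2* stood at 188, 155 and 91.6 CPM in control EV libraries A, B and C and at 317, 202 and 118 CPM in the libraries labelled control *daf-2* RNAi. After long arrest it stood at 193, 153 and 102 CPM on EV and at 706, 289 and 111 CPM under the RNAi label. Neither change was called (0.50 ± 0.55 in control and 0.96 ± 0.55 in starved animals, SE, limma adjusted p = 0.917 and 0.212). With the replicate letter added to the limma fit, adjusted p was 0.276 and 0.00791. Directions given for RNAi therefore follow the labels. *sod-3*, a superoxide dismutase gene known to rise when the receptor is inactive, went from 1.94 ± 0.39 to 11.03 ± 1.52 CPM in control and from 3.52 ± 0.80 to 12.1 ± 2.51 CPM in starved animals (SD, n = 3, limma adjusted p = 0.00015 and 0.000755). *daf-16*, the transcription factor that acts below the receptor, was called in none of the 6 comparisons, with group means from 161 ± 8.31 to 179 ± 36.9 CPM.

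Summed over the 33 genes, proteasome transcripts made up 7893, 9454 and 9903 CPM in control EV libraries A, B and C. In starved EV the sums were 6333, 7849 and 6804 CPM, each below all 3 control EV libraries, though only just for starved EV B. The starved *daf-2* RNAi sums were 8054, 9429 and 8910 CPM, and those of control *daf-2* RNAi 9774, 9417 and 9244 CPM. The starved *daf-2* RNAi sums lay above those of starved EV and within the spread of control EV. The separation of starved EV from control EV depended on the scaling. With columns scaled to the same sum, starved EV A, B and C had sums of 6062, 7919 and 7652. Those of control EV A, B and C were then 7189, 8826 and 9759, so starved EV B and C lay above control EV A. Group means were 9084 ± 1055 CPM (control EV), 9478 ± 270.3 (control *daf-2* RNAi), 6995 ± 776 (starved EV) and 8798 ± 694 (starved *daf-2* RNAi; SD, n = 3). Starved EV had the lowest group mean for all 33 genes, and the lowest of the 12 libraries was starved EV A for 20 genes and starved EV C for 13. The highest group mean was that of control *daf-2* RNAi for 21 genes, control EV for 10 and starved *daf-2* RNAi for 2.

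**Figure D1:**
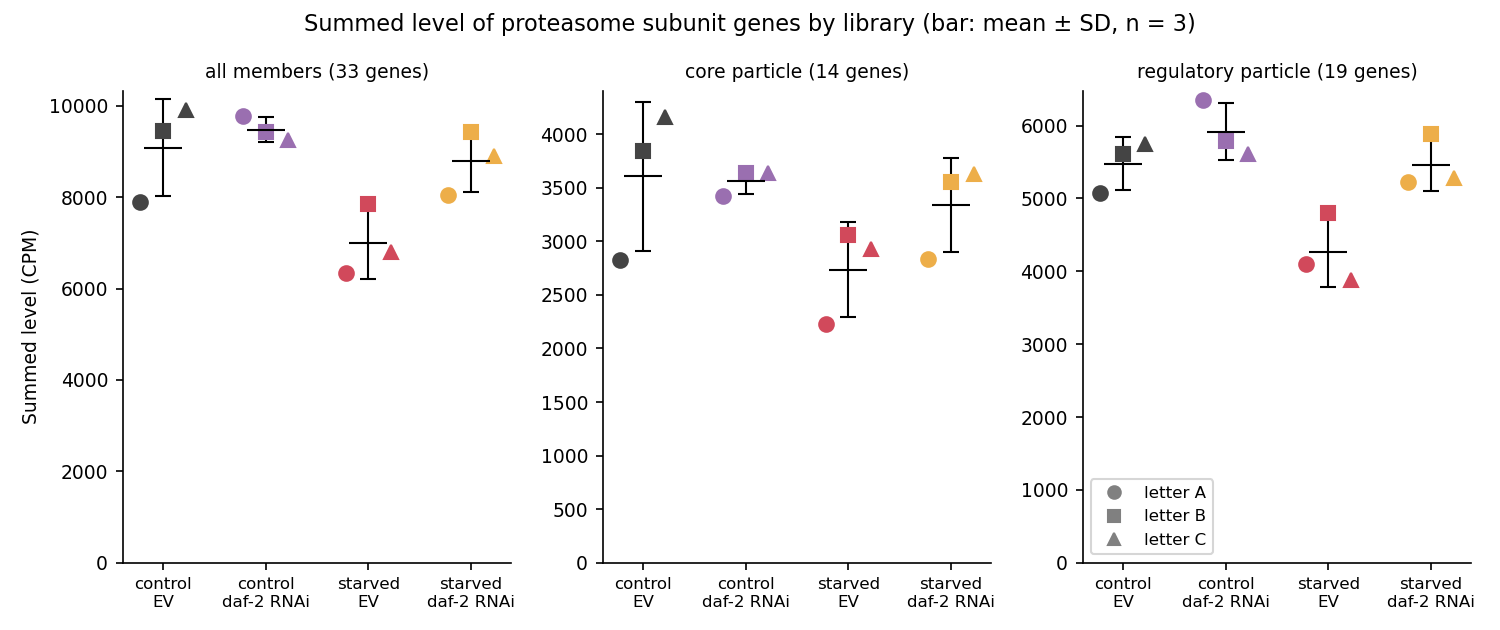
Summed level in CPM of all 33 proteasome genes, the 14 of the core particle and the 19 of the regulatory particle, by group; circles, squares and triangles are the libraries lettered A, B and C, and bars give the mean ± SD (n = 3). The starved EV sums of all members, 6333 to 7849 CPM, lie below the 3 control EV libraries and the 3 starved *daf-2* RNAi libraries. With columns scaled to the same sum (not drawn), starved EV B and C lie above control EV A.

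Per length, the core particle genes stood highest. The alpha ring gene *pas-3* (Y110A7A.14, chromosome I, 5105110 to 5106048, WBcel235) had the highest level of all members, 365 CPM per kb of annotated exon over the 12 libraries, with *pas-5* at 320 and *pas-2* at 315. The median level per kb over genes was 276 CPM in the alpha ring, 247 in the beta ring, 207 among the base ATPases, 182 in the lid and 138 among the other base genes. Neighbours in the order of levels overlapped in their range over libraries, except at the bottom. There *rpn-2* at 124 CPM per kb was followed by *rpn-6.2* at 15.8, whose highest library, 19.4 CPM per kb, lay below the lowest of *rpn-2*, 66.8.

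*rpn-6.1* and *rpn-6.2* are paralogs that both encode the lid subunit Rpn6. The level of *rpn-6.1* (F57B9.10, chromosome III, 6959110 to 6962001) per kb was 10.2 times that of *rpn-6.2* (F59B2.5, chromosome III, 8999817 to 9001999), and 8.98 to 13.4 times within single libraries. In CPM, not divided by length, *rpn-6.2* read 25.2, 28.1 and 30.1 in control EV, 21.9, 26.1 and 26.5 in the control RNAi libraries, 18.9, 23.8 and 20.7 in starved EV and 22.5, 26.6 and 25.7 in the starved RNAi libraries (A, B and C). In the same order of groups *rpn-6.1* read 249, 287 and 286, then 310, 275 and 281, then 217, 252 and 214, then 261, 295 and 264 CPM. For both paralogs the lowest library was a starved EV library. How reads that match both copies were assigned is not given in the sources used here.

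**Figure D2:**
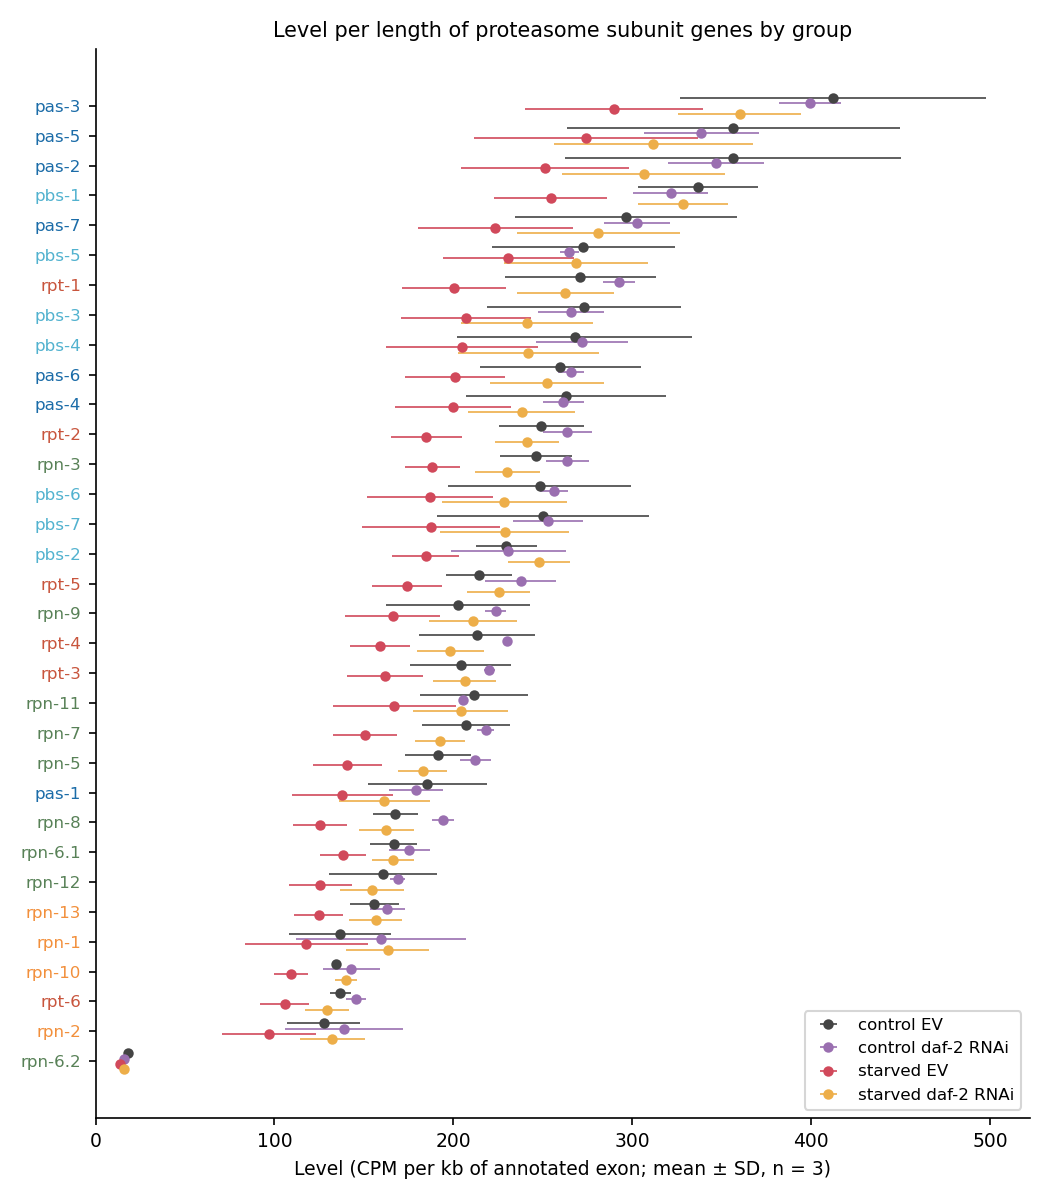
Level of each proteasome gene in CPM per kb of annotated exon (mean ± SD, n = 3) in the 4 groups, ordered by the mean over all libraries; names are coloured by ring, base or lid. Levels run from 365 CPM per kb (*pas-3*) to 15.8 (*rpn-6.2*), and the starved EV mean (red) is the lowest of the 4 for every gene.

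After 8 days of arrest and recovery on EV bacteria, every proteasome gene had a lower estimate in the adult than after 1 day, though few passed the test. All 33 estimates of starved EV against control EV were below 0, from -0.50 for *pas-3* to -0.23 for *pbs-5*, with a median of -0.38 (23.4% lower). Of these, 7 genes passed the test and were lower (21.2% of members), against 6.12% of all tested genes called lower, and no member was called higher. The 7 were the lid genes *rpn-7*, *rpn-5*, *rpn-8* and *rpn-3*, the base ATPases *rpt-2* and *rpt-6*, and the beta ring gene *pbs-1*. An unadjusted p below 0.05 was reached by 24 members, and by 4812 of the 12830 tested genes in either direction. All 3 starved EV libraries lay below all 3 control EV libraries for 11 members (33.3%), against 16.7% of tested genes.

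The interquartile range of their changes was 0.089 on the log2 scale, against 0.656 over all tested genes, whose median was 0.03. Abundant genes as a whole leaned the same way: among the 1447 tested genes with a mean level between those of *rpn-12* and *rpn-1* (130 to 458 CPM, the span of every member but *rpn-6.2*), the median change was -0.25, the interquartile range 0.271, 83.3% of estimates were below 0 and 10.6% of genes were called lower.

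**Figure D3:**
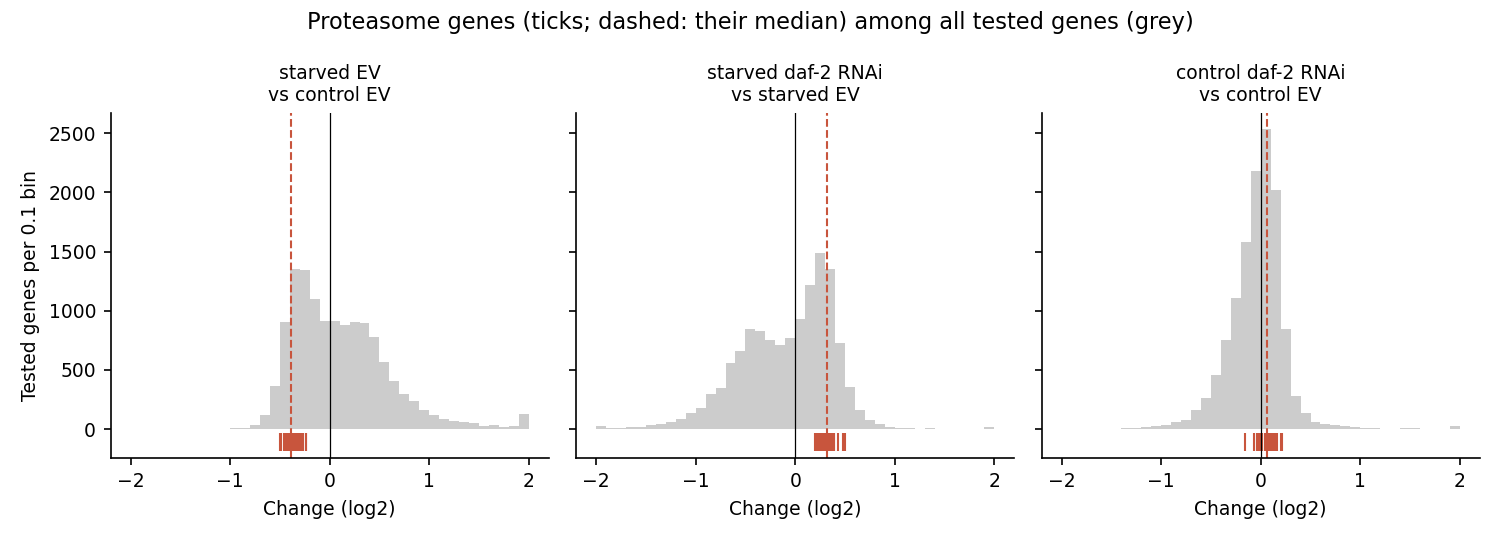
Number of tested genes per 0.1 bin of log2 change (grey; changes beyond 2 in size are in the end bins) in 3 comparisons, with the 33 proteasome genes as ticks and their median as a dashed line. The members' medians are -0.38, 0.32 and 0.07, and each set of ticks covers a narrow stretch of the distribution.

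In the lid, 4 of 9 genes were called lower, with a median of -0.38 over the 9. *rpn-7* (F49C12.8, chromosome IV, 9316631 to 9318632), a scaffold subunit of the lid, read 345, 400 and 439 CPM in control EV and 260, 325 and 276 CPM in starved EV. All starved EV libraries lay below all control EV libraries, a change of -0.46 ± 0.13 (SE, limma adjusted p = 0.0332). Its exons share 394 bases with *nemt-1* on the other strand, which a kit without strand information cannot separate. *rpn-5* (F10G7.8, chromosome II, 4696418 to 4698427), also a scaffold subunit, read 298, 323 and 361 CPM in control EV and 233, 277 and 213 CPM in starved EV (-0.45 ± 0.13, adjusted p = 0.0345). *rpn-8* (R12E2.3, chromosome I, 4175319 to 4177271), the partner of the deubiquitinase subunit, read 198, 197 and 225 against 152, 174 and 137 CPM (-0.42 ± 0.12, adjusted p = 0.0346). *rpn-3* (C30C11.2, chromosome III, 8447353 to 8449346) read 418, 459 and 493 against 339, 381 and 328 CPM (-0.38 ± 0.12, adjusted p = 0.0453). In each of these 3 genes, too, the groups did not overlap.

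The deubiquitinase itself, *rpn-11* (K07D4.3, chromosome II), read 218, 285 and 281 CPM in control EV and 159, 242 and 217 CPM in starved EV, where the highest starved and the lowest control libraries overlapped (-0.35 ± 0.17, adjusted p = 0.143). *rpn-9* and *rpn-12*, lid scaffold subunits, had estimates of -0.28 and -0.34 and were not called. The estimate of *rpn-6.1* was -0.27 ± 0.12 (adjusted p = 0.117), and *rpn-6.2* had -0.38 ± 0.14 (adjusted p = 0.0671).

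Among the ATPases of the base, 2 of 6 were called lower, with a median of -0.40. *rpt-2* (F29G9.5, chromosome V, 6016059 to 6017669) read 332, 368 and 402 CPM in control EV and 261, 306 and 250 in starved EV (-0.43 ± 0.12, limma adjusted p = 0.0347). *rpt-6* (Y49E10.1, chromosome III, 12370456 to 12372607) read 183, 198 and 196 against 142.2, 170 and 133 CPM (-0.38 ± 0.12, adjusted p = 0.0475). Neither gene had overlapping groups. *rpt-4* had separate groups as well, with 208 to 257 CPM in starved EV below 262 to 357 in control EV, and fell just short of the threshold (-0.42 ± 0.14, adjusted p = 0.0518). The estimates of *rpt-1*, *rpt-3* and *rpt-5* were -0.43, -0.33 and -0.30, with overlapping groups.

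The other base genes had a median of -0.31, and none of the 4 was called. The ubiquitin receptor *rpn-10* (B0205.3, chromosome I) read 175, 171 and 175 CPM in control EV and 142.4, 153 and 128 in starved EV, separate groups with a change of -0.30 ± 0.11 (adjusted p = 0.0766). *rpn-13*, the other ubiquitin receptor, read 210, 247 and 242 against 176, 210 and 173 CPM (-0.32 ± 0.12, adjusted p = 0.0832). The scaffolds *rpn-1* and *rpn-2* had the largest SE of all members, 0.26 and 0.23, beside estimates of -0.24 and -0.42.

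In the core particle, the beta ring had a median of -0.39 and the alpha ring of -0.40. *pbs-1* (K08D12.1, chromosome IV, 1708814 to 1709745), a beta subunit whose mammalian counterpart carries a cutting site, read 246, 298 and 287 CPM in control EV and 201, 238 and 188 in starved EV, and was the only core gene called in this fit (-0.41 ± 0.13, adjusted p = 0.0455). The groups did not overlap. *pas-3* had the largest estimate of all members but a wider spread, with 289, 375 and 441 CPM in control EV and 210, 298 and 268 in starved EV, where starved EV B lay above control EV A (-0.50 ± 0.17, adjusted p = 0.0573). *pbs-5*, whose mammalian counterpart is the cutting subunit hit by proteasome inhibitor drugs, read 226, 320 and 319 against 202, 277 and 254 CPM and had the smallest estimate (-0.23 ± 0.17, adjusted p = 0.321).

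The number of called genes rested on the tool and on single libraries. Shares of all tested genes called in the alternative runs are not given here. All 33 estimates stayed below 0 in each alternative run, except that 32 did without starved EV C. edgeR on recovered reads called 4 members lower (*rpn-5*, *rpn-7*, *rpn-8*, *rpt-2*) and DESeq2 11. Leaving out control EV A gave 16 calls and leaving out starved EV B gave 12. Leaving out control EV B or C, starved EV A or C, or control *daf-2* RNAi B or C gave 0, and leaving out control *daf-2* RNAi A, starved *daf-2* RNAi A or starved *daf-2* RNAi C gave 4. Scaling all columns to the same sum moved the median of all genes from 0.03 to 0.13, gave 0 calls and left the members 0.39 below that median, against 0.41 in the main scaling. Quantile normalization gave 1 call, *rpn-6.2*, and a median of -0.19, 0.12 below that of all genes.

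**Figure D4:**
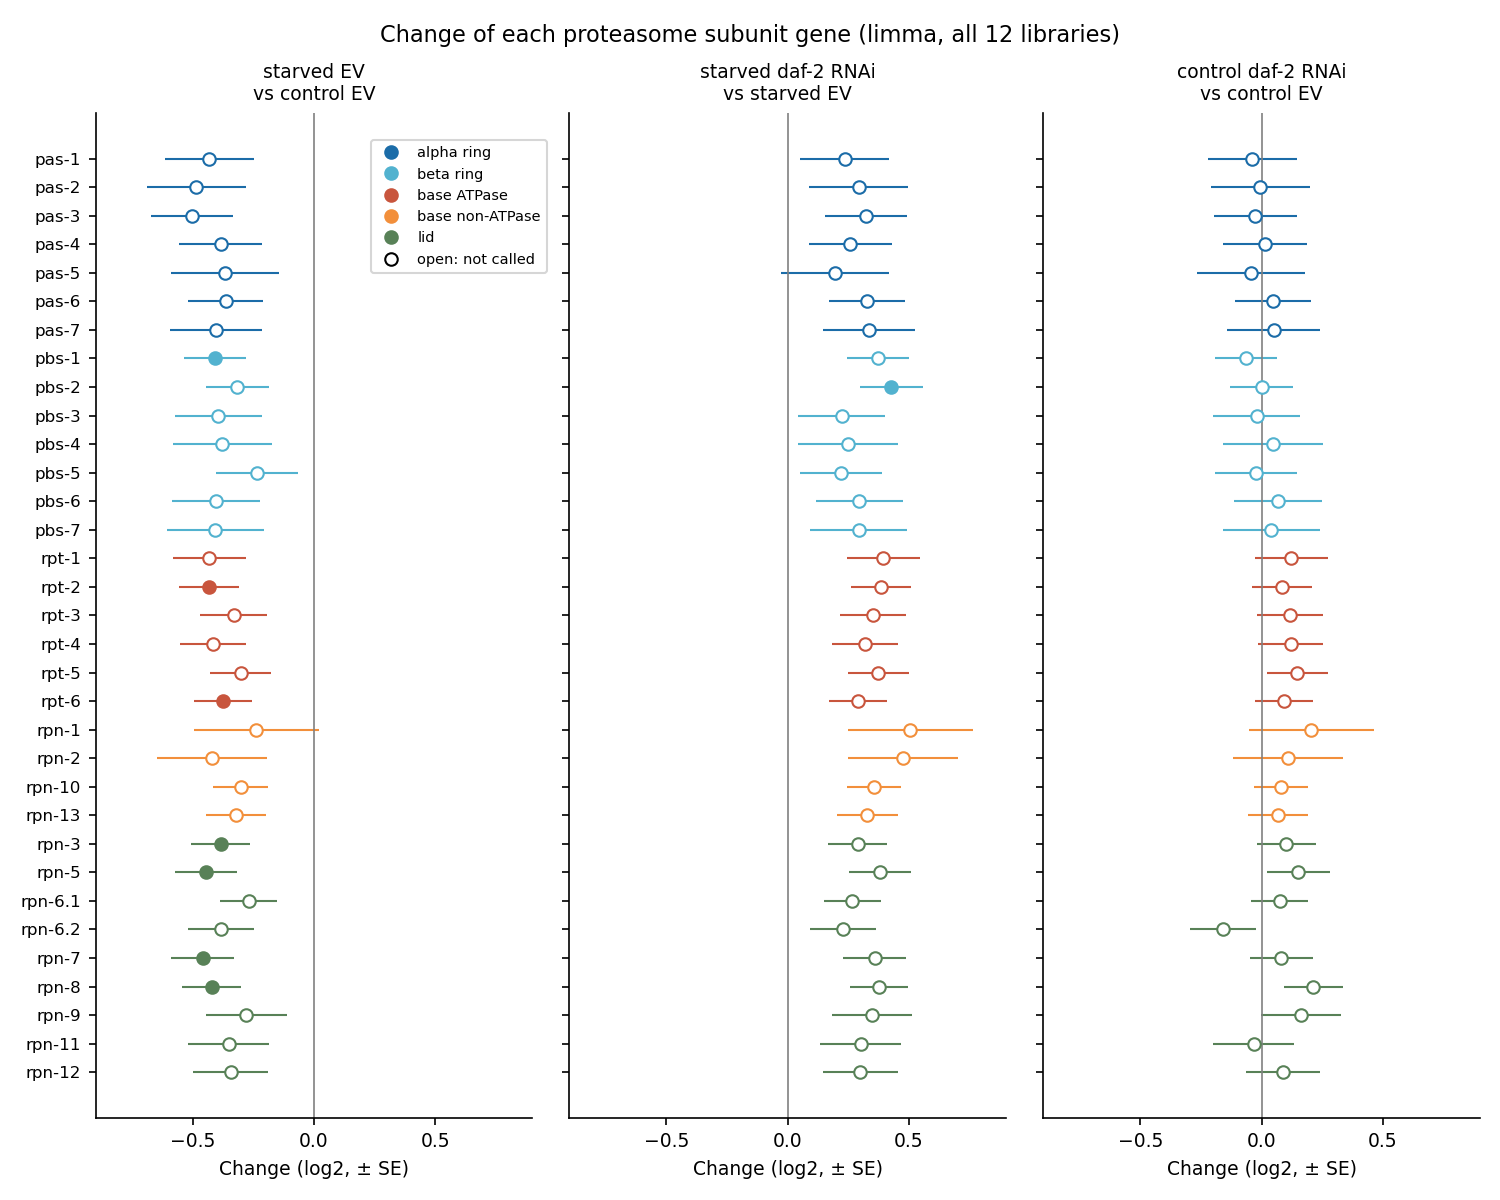
Log2 change ± SE of each proteasome gene in 3 comparisons (limma over 12 libraries); filled points passed the adjusted threshold and colours mark ring, base or lid. All 33 points are below 0 on the left (7 filled) and above 0 in the middle (1 filled, *pbs-2*); 24 are above 0 on the right, none filled.

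Within the starved animals, those labelled *daf-2* RNAi had higher proteasome transcript sums than those on EV. All 33 estimates were above 0, from 0.20 for *pas-5* to 0.50 for *rpn-1*, with a median of 0.32 (25.0% higher). Without the replicate letter in the fit, 1 member was called higher (3.03% of members), against 3.8% of all tested genes called higher. An unadjusted p below 0.05 was reached by 15 of the 33 members, and by 4641 of the 12830 tested genes in either direction. Same-lettered libraries of this comparison deviated together, and with the letter as a replicate block 30 members were called higher (90.9%), against 23.7% of tested genes. That fit gave each letter 1 effect shared by all 4 groups. Across arrest lengths, however, the letter B libraries did not deviate together (correlations 0.0848 on EV and -0.0952 under the RNAi label). The 3 not called with the block were *pas-5*, *pbs-5* and *rpn-6.2* (limma adjusted p = 0.0993, 0.0763 and 0.0512). Groups did not overlap for 13 members (39.4%), against 13.6% of tested genes. Within each of the pairs A, B and C all 33 members were higher under the RNAi label, with median ratios of 1.27, 1.20 and 1.27. The share of all tested genes higher within each pair is not given here. Abundant genes as a whole leaned the same way in this comparison, with a median change of 0.25.

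The call without the block was *pbs-2* (C47B2.4, chromosome I, 12967216 to 12968280), also the counterpart of a cutting subunit. *pbs-2* read 178, 207 and 172 CPM on EV and 231, 266 and 252 under the RNAi label, each RNAi library above all of EV (0.43 ± 0.13, limma adjusted p = 0.0434, or 0.00629 with the block). Its ratios within pairs were 1.30, 1.28 and 1.47. The 3 genes with the smallest adjusted p in the arrest comparison had estimates above 0 here: *rpn-7* read 340, 393 and 369 CPM (0.36 ± 0.13, adjusted p = 0.0751, or 0.00764 with the block), *rpn-5* 305, 339 and 294 (0.38 ± 0.13, adjusted p = 0.0603 or 0.00842) and *rpn-8* 200, 220 and 182 (0.38 ± 0.12, adjusted p = 0.0528 or 0.00768). These 3 genes had groups that did not overlap. Both comparisons share the starved EV libraries, so a low value there enters each of them.

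By role, the median was 0.42 over the non-ATPase base genes, 0.36 over the ATPases, 0.30 over the lid and 0.29 over each of the alpha and beta rings. The scaffolds *rpn-1* (T22D1.9, chromosome IV, 6906420 to 6909913) and *rpn-2* (C23G10.4, chromosome III, 6199184 to 6202594) had the largest estimates. *rpn-1* read 457, 413 and 251 CPM on EV and 577, 542 and 434 under the RNAi label, with ratios of 1.26, 1.31 and 1.73 in pairs A, B and C (0.50 ± 0.26, adjusted p = 0.171, or 0.00385 with the block). *rpn-2* read 364, 346 and 211 CPM against 462, 441 and 353 CPM, with ratios of 1.27, 1.27 and 1.67 (0.48 ± 0.23, adjusted p = 0.148 or 0.00419). In both genes pair C had the largest ratio. *rpn-1* and *rpn-2* are also the longest members, with 3171 and 3166 bases of exon. The part of gene length in the order of medians by role was not tested. Among abundant genes of the same span of levels, the median change was 0.25, 22.5% of estimates were below 0 and 6.84% were called higher.

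Calls again moved with single libraries and tools, and the shares of all tested genes called in these runs are not given here. edgeR called 0 members and DESeq2 10. Without starved EV B 9 members were called, and without control *daf-2* RNAi A 2. No member was called without starved EV A (32 of 33 estimates above 0), starved EV C, starved *daf-2* RNAi A or B, control EV B or C, or control *daf-2* RNAi B or C.

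In control animals no proteasome gene passed the test between the RNAi label and EV. Estimates ran from -0.16 for *rpn-6.2* to 0.21 for *rpn-8*, with a median of 0.07, and 24 were above 0 (32 with columns scaled to the same sum, 12 without control EV A). In the main fit 27.3% of members had an estimate below 0. Among abundant genes of the same span of levels 31.6% did, and their median was 0.08. limma called 0 members, with 0 at an unadjusted p below 0.05, and edgeR, DESeq2 and limma with the replicate block each called 0, against 1.39% of all tested genes called in either direction. The SE of a member was 0.11 to 0.26, and a p that misses the threshold does not show that levels were alike. The pairs differed: 32 members were higher under the RNAi label in pair A, 14 in pair B and 4 in pair C, with median ratios of 1.23, 0.987 and 0.927. Shares of all tested genes higher within these pairs are not given here. Members higher in all 3 pairs were *rpn-8* (ratios 1.25, 1.22 and 1.03) and *rpt-6* (1.16, 1.04 and 1.00). *rpn-6.2* was lower in all 3 (0.868, 0.929 and 0.880). All 3 RNAi libraries lay above all 3 EV libraries for 1 member, *rpn-8* (3.03%), against 7.01% of tested genes. The median over regulatory particle genes was 0.10 and over core particle genes -0.00.

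Whether the RNAi change differed between starved and control animals was tested as an interaction. All 33 estimates were above 0 (larger in starved animals), from 0.16 to 0.44 with a median of 0.25, and SEs were 0.16 to 0.36. Abundant genes of the same span of levels had a median of 0.16, with 19.8% of estimates below 0. limma called 0 members, with adjusted p from 0.683 to 0.794, and edgeR, DESeq2 and the replicate block also called 0; over all genes 0% were called. Of the members, *pbs-1* (0.44 ± 0.18, adjusted p = 0.683) and *pbs-2* (0.43 ± 0.18, adjusted p = 0.687) had an unadjusted p below 0.05, as did 912 of the 12830 tested genes. A difference between the RNAi changes in starved and control animals was thus not shown for any member.

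Set against control EV, starved *daf-2* RNAi libraries had estimates from -0.19 to 0.27 with a median of -0.05. limma, edgeR and DESeq2 each called 0 members, 0 had an unadjusted p below 0.05, and 5.78% of tested genes were called. The groups overlapped for all 33 members. Estimates above 0 were those of *rpn-1* (0.27 ± 0.26), *pbs-2* (0.11 ± 0.13) and 6 others up to 0.07. Their number depended on the scaling: 25 estimates were below 0 in the main fit, 17 with quantile normalization and 6 with columns scaled to the same sum. Among abundant genes of the same span of levels, 52.4% of estimates were below 0 in the main fit.

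Against control *daf-2* RNAi, starved *daf-2* RNAi estimates ran from -0.26 for *rpn-8* to 0.11 for *pbs-2*, with a median of -0.13 and 28 below 0 (24 with quantile normalization and with columns scaled to the same sum). In the main fit these 28 were 84.8% of members. Abundant genes of the same span of levels had a median of -0.09, with 75.8% of estimates below 0. Again limma, edgeR and DESeq2 called 0 members and 0 had an unadjusted p below 0.05, while 0.701% of tested genes were called. Summed levels were 8054 to 9429 CPM in the starved and 9244 to 9774 CPM in the control libraries, which overlapped. Member by member, all 3 starved libraries lay below all 3 control libraries for 6 genes (18.2%), *rpn-3*, *rpn-5*, *rpn-7*, *rpn-8*, *rpt-3* and *rpt-4*, against 5.73% of tested genes.

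Libraries of a group differed by letter in a way that followed gene length. *rpn-1* and *rpn-2* have 3171 and 3166 bases of annotated exon, the longest of the set. *rpn-1* was highest in A and lowest in C in every group, with 507, 461 and 332 CPM in control animals on EV and 675, 455 and 388 CPM under the RNAi label. Short core genes ran the other way: the level of *pas-3*, with 893 bases, was 0.655 times as high in A as in C in control EV and 0.785 times in starved EV. Over the 33 members the ratio of A to C rose with exon length, with a Spearman coefficient of 0.69 (control EV), 0.60 (control *daf-2* RNAi), 0.68 (starved EV) and 0.75 (starved *daf-2* RNAi). Over 12671 genes the coefficients were 0.56, 0.48, 0.58 and 0.53. These describe pairs of single libraries, in which all genes share depth and preparation. The part of this length pattern in the results above was not tested.

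**Figure D5:**
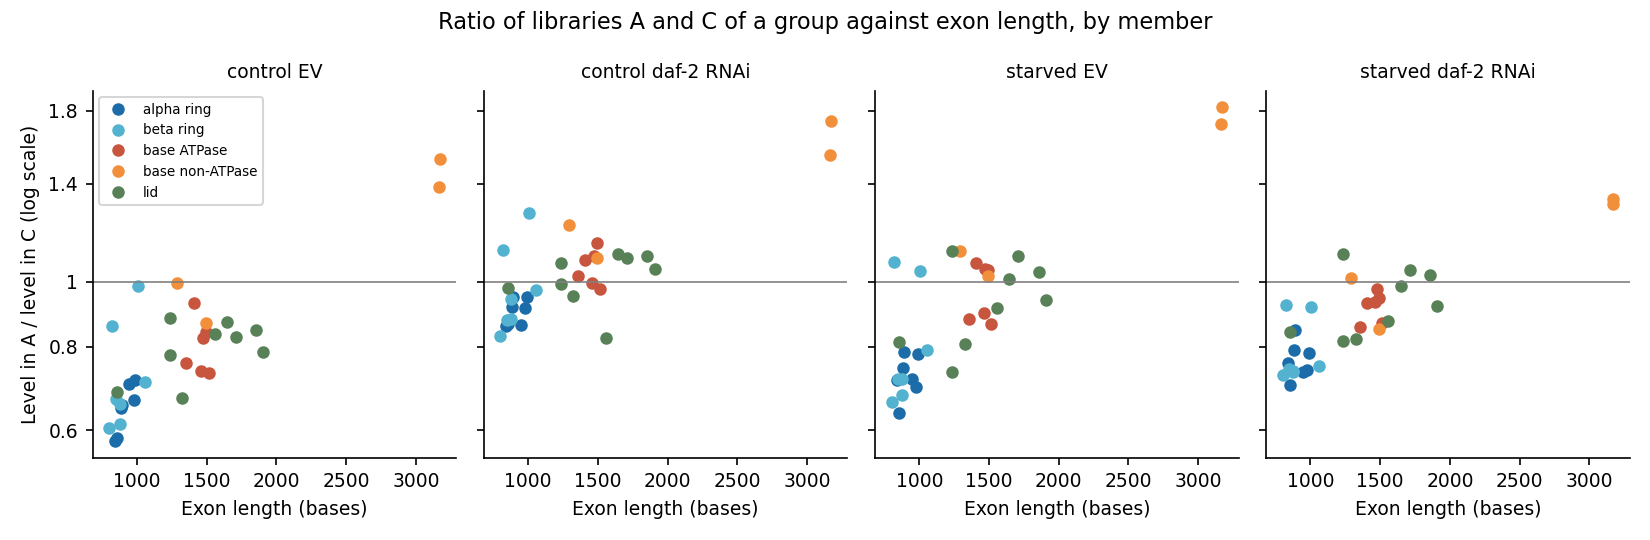
Ratio of the level in library A to that in library C (log axis) against annotated exon length in bases for the 33 members in each group, coloured by ring, base or lid. *rpn-1* and *rpn-2*, at 3171 and 3166 bases, have the highest ratios in every group (1.31 to 1.82), and the short core genes lie mostly below 1.

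Of 12 genes whose products work with the proteasome, 10 were listed and tested, and whether they differed from its subunits was not tested. In starved EV against control EV, 1 of the 10 was called lower and none higher, with estimates from -0.48 (*psme-3*) to -0.11 (*ubql-1*) and a median of -0.33. Over all tested genes 6.12% were called lower. The called gene was *ubh-4*, a proteasome-bound deubiquitinase, at 143 ± 21.3 CPM in control EV and 103.9 ± 6.04 in starved EV (SD, n = 3, -0.45 ± 0.12 SE, limma adjusted p = 0.0289). In starved *daf-2* RNAi against starved EV none of the 10 was called, with estimates from 0.07 (*ubql-1*) to 0.38 and a median of 0.27. The largest estimates were those of *rad-23*, which carries ubiquitinated proteins to the proteasome (0.38 ± 0.13, adjusted p = 0.0566), and *usp-14*, a deubiquitinase (0.36 ± 0.14, adjusted p = 0.0914).

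Of 40 genes of the ubiquitin system, 39 were tested, and 3 were called lower in starved EV, with a median of -0.28. Over all tested genes 6.12% were called lower. The 3 were the ubiquitin-conjugating enzymes *ubc-6* (85.9 ± 2.62 to 63.6 ± 7.42 CPM, adjusted p = 0.0207) and *ubc-13* (163 ± 17.2 to 123 ± 10.8 CPM, adjusted p = 0.0490), and the chain-elongating ligase *ufd-2* (320.3 ± 7.85 to 243 ± 17.1 CPM, adjusted p = 0.0288). Under the RNAi label in starved animals the median was 0.28. Of the 39 genes 1 was called higher, against 3.8% of all tested genes. It was *ufd-3*, a cofactor of the unfoldase CDC-48, from 272 ± 41.3 to 372 ± 31.5 CPM (0.46 ± 0.14, adjusted p = 0.0433).

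The transcription factor gene *skn-1*, which acts on proteasome genes, read 224, 186 and 143 CPM in control EV, 234, 204 and 186 in the control RNAi libraries, 192, 174 and 119 in starved EV and 210.3, 217 and 168 in the starved RNAi libraries. Its groups overlapped throughout, and it was called in none of the 6 comparisons (starved EV against control EV -0.19 ± 0.20, adjusted p = 0.493). In starved *daf-2* RNAi against starved EV its estimate was 0.31 ± 0.20 without the replicate block (limma adjusted p = 0.260). With the block adjusted p was 0.0153, in a fit that called 23.7% of all tested genes higher there. The block assumes a pairing by letter across arrest lengths, which letter B did not show. The table does not separate its isoforms. Over the 15 genes of a SKN-1 pathway list, 0 were called by limma in starved EV against control EV, with a median of -0.12. The largest estimates were those of *nlp-29*, an antimicrobial peptide gene (0.33 ± 0.22, adjusted p = 0.292), and *ddi-1*, the protease that activates SKN-1 (-0.31 ± 0.11, adjusted p = 0.0765). In starved *daf-2* RNAi against starved EV 1 was called lower, *mxl-3*, with a median of 0.16. Over all genes 1529 of 12830 were called lower there. *mxl-3* encodes a repressor of lysosomal lipase genes rather than a proteasome regulator, and went from 80.9 ± 9.21 to 40.5 ± 3.87 CPM (-0.98 ± 0.15, adjusted p = 0.00182).

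Other large complexes and tissue markers were read from the same fit, and their part in the proteasome result was not tested. For scale, in starved EV against control EV 6.12% of all tested genes were called lower, and 1481 of 12830 were called higher. In starved *daf-2* RNAi against starved EV 3.8% were called higher and 1529 of 12830 lower. For the 8 chaperonin genes, which encode a protein-folding complex, the median was -0.30 in starved EV against control EV and 0.37 in starved *daf-2* RNAi against starved EV, with 0 called by limma in either. Among 76 cytosolic ribosomal protein genes 18 were called lower in starved EV, with a median of -0.46, while under the RNAi label in starved animals 2 were called lower and the median was -0.00. A test of the difference between these lists and the proteasome genes was not run.

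Of 29 germline markers, 8 were called lower in starved EV against control EV (median -0.43) and 7 higher in starved *daf-2* RNAi against starved EV (median 0.46). Their summed level was 8857 to 11804 CPM in control EV, 9632 to 13213 in the control RNAi libraries, 5523 to 8591 in starved EV and 9367 to 11612 in the starved RNAi libraries, and none of them was at 0. Of 17 oocyte and early embryo markers, 1 was called lower in starved EV against control EV (median -0.37), where *perm-2* and *perm-4* had estimates of 0.42 and 0.44, and 9 were called higher in starved *daf-2* RNAi against starved EV (median 0.55). Of 11 moulting genes tested, 9 were higher in starved EV (median 1.92) and 6 lower under the RNAi label in starved animals (median -1.30). Of 12 neuron markers 4 were called higher in starved EV, as were 4 of 9 hypodermis and 2 of 11 intestine markers, against 1481 of 12830 tested genes. Hypodermis estimates ran from -0.62 to 3.20. The summed level of hypodermis markers was 1773 to 2452 CPM in control EV and 1524 to 1789 CPM in starved EV. In the same comparison 0 of 11 body wall muscle and 0 of 8 sperm markers were called by limma. In starved *daf-2* RNAi against starved EV, 3 intestine markers were called lower and 1 higher (median -0.66), 2 hypodermis markers were called lower (median -0.62), and no neuron, body wall muscle or sperm marker was called (medians -0.38, -0.44 and 0.65). Sperm markers were the scarcest, with 5 of 13 not among the listed genes, and every other tissue on these lists was represented by most of its markers.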

How the data were processed

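Messenger RNA of 12 libraries was measured, 3 in each of 4 groups taken from the labels. The authors deposited 1 signal value per gene and library, labelled CPM. Column sums ran from 889133 to 1097908, so the values are counts relative to a scaled library size. The design had assumed plain CPM, and its test was kept. Bowtie 1.1.2, HTSeq 0.12.4 and edgeR are named in the submitters' processing notes, without roles. What genome build, annotation and rule for reads with several matches the authors used is not given in the sources used here, so WBcel235 served for names, lengths and positions only. The library kit named in the labels keeps no strand.

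Each column consisted of whole multiples of 1 step. Dividing by it gave whole reads for 100% of values within 0.01 read, which gave the depths and served the count tests. In 3 libraries the smallest value corresponds to 2 reads, so their step was taken as 0.5 of it, a step that left every value whole. Symbols were found for 12734 sequence names and for 160 none. Of the 33 members, 11 share exon bases with another gene (10 with a coding gene), from 4 to 394 bases.

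Tested genes reached 1 CPM in 3 or more libraries, which kept 12830, every member among them. limma 3.58.1 (R 4.3.3) with a trend was fitted to log2(CPM + 1) over 12 libraries, two-sided, with Benjamini-Hochberg adjustment over all tested genes within each of 6 comparisons and a threshold of 0.05. With 3 libraries against 3, the smallest p of an exact permutation test is 0.1. Alternatives were a pseudocount of 0.5, no filter, a mean of at least 5 CPM, quantile normalization, columns scaled to the same sum, edgeR 4.0.16 (quasi-likelihood) and DESeq2 1.42.0 on recovered reads, the replicate letter as a block, only the groups compared, and each library left out. The fits were tested on simulated data.

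Deviations from group means of same-lettered libraries correlated at 0.695, 0.550 and 0.541 (control) and 0.821, 0.596 and 0.593 (starved) between EV and RNAi for letters A, B and C, so letters were taken to pair these libraries, from the data and not the labels. Across arrest lengths the correlations were 0.645, 0.0848 and 0.659 on EV and 0.487, -0.0952 and 0.579 under the RNAi label. Letters were not taken to pair libraries across arrest lengths, since this was to hold for every letter and letter B did not show it. The block fit nonetheless gave each letter 1 effect shared by all 4 groups, so every result with the block assumes such a pairing. Replicates differed by 17.5 to 220 in chi-square per gene, so none was a copy of another.

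The members and lists were chosen with earlier results of these data known. Values in every library follow a rule for *rpn-7*, *rpn-5*, *rpn-8*, *pas-3*, *rpn-6.2* and the genes checked in every sample; those of other members were shown after their values were seen. From each list the called genes, or the 2 largest estimates where none was called, are named.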

Additional observations from a re-analysis of the deposited data

How the results depend on the processing

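Over the alternatives run no called gene reversed its direction, and every count of called members stayed at 0 in the comparisons of control *daf-2* RNAi with control EV, of starved *daf-2* RNAi with either control group, and of the interaction. For starved EV against control EV, where 7 members were called lower, quantile normalization gave 1 and a median of -0.19, columns scaled to the same sum gave 0, edgeR 4, DESeq2 11, the replicate block 31 and a fit of only the groups compared 0. For starved *daf-2* RNAi against starved EV, where 1 was called higher, a mean of at least 5 CPM gave 2, quantile normalization 0, columns scaled to the same sum 5, edgeR 0, DESeq2 10, the replicate block 30 and only the groups compared 0. Leaving out each library in turn gave 0 to 16 calls in the first comparison and 0 to 9 in the second. The cause was not tested, except that fits with fewer libraries or groups have fewer degrees of freedom. Shares of all tested genes called under these alternatives are not given here, except for the block in starved *daf-2* RNAi against starved EV (23.7% higher). The counts under the other alternatives therefore cannot be read as particular to proteasome genes. Across arrest lengths letters A and C went together (correlations 0.645 and 0.659 on EV) and letter B did not (0.0848). The block fit gave each letter 1 effect shared by all 4 groups. Its 31 and 30 calls thus both rest on a pairing that not every letter shows. The called genes kept their call in 6 (*rpt-6*) to 12 (*rpn-5*, *rpn-7*, *rpn-8*, *rpt-2*) of 21 alternatives. The median change of members kept its sign in all alternatives for starved EV against control EV (-0.49 to -0.19) and for starved *daf-2* RNAi against starved EV (0.19 to 0.42), but not for control *daf-2* RNAi against control EV (-0.03 to 0.15) or starved *daf-2* RNAi against control EV (-0.17 to 0.09). At this depth even *rpn-6.2*, the scarcest member, had 417 to 731 reads in a library.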
